A study of Homo sapiens with 4 samples.

Results

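Amino acid transporters of the SLC1, SLC3, SLC6, SLC7, SLC36, SLC38 and SLC43 families were examined in cells with and without overexpression of REEP6, a membrane protein of the endoplasmic reticulum. The members were all genes of the deposited tables whose symbol is an SLC number of these families followed by A and a number, which gave 59 of 51103 genes. The cells were labelled SCC-15, a human line of oral squamous cell carcinoma (OSCC). One group of 2 libraries was labelled NC (negative control) and the other group of 2 REEP6-overexpression, the latter made with a lentivirus, and RNA was taken with Trizol after 48 hours. What the control cells received is not stated in the labels, nor whether the overexpressing cells were a clone or a pool, and the labels name no separate cultures behind the replicates. The p-values thus describe the spread among these 4 libraries, and this spread may be technical.

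Amino acids cross membranes by carriers that differ in substrate and in what drives them. SLC7 light chains such as SLC7A5 (LAT1) and SLC7A11 (xCT) reach the cell surface by pairing with the heavy chain SLC3A2 (CD98 or 4F2hc). They work as exchangers, so they depend on carriers such as those of SLC38, which load the cell with neutral amino acids together with sodium. In squamous and other carcinomas SLC7A5, SLC1A5 and SLC7A11 are known for supplying leucine and other essential amino acids, glutamine and cystine. Several of these genes are known targets of ATF4, the transcription factor of the amino acid response.

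Of the 59 genes, 18 had a count of 0 in every library, 19 had counts but stayed under the limit for testing, and 22 were tested because 2 or more libraries reached 1 FPKM, the count scaled for gene length and library depth. With REEP6 overexpression 5 of the 22 rose and 4 fell at a Benjamini-Hochberg adjusted p of 0.05 in edgeR's quasi-likelihood test over all 13077 genes tested. SLC7A5 rose 1.67-fold, SLC1A4 1.77-fold, SLC7A1 1.51-fold, SLC1A5 1.44-fold and SLC38A4 1.31-fold. SLC7A11 fell 2.19-fold, SLC1A3 1.66-fold, SLC36A4 1.42-fold and SLC38A2 1.37-fold. Of these, SLC1A3 reached the limit only in the controls, where it is high, so the filter favoured its fall and it adds nothing to the counts as support. Among all genes tested 25.1% were called, 10.9% higher and 14.2% lower, against 40.9% of the tested transporters (22.7% higher and 18.2% lower). The median log2 fold change was 0.08 over the 22 transporters and -0.01 over all genes tested. After scaling to equal FPKM sums, where the median over all genes was -0.14, 4 transporters rose and 6 fell (26.6% of all genes called), and over all genes the split went from 1422 higher and 1854 lower to 661 and 2824. Without REEP6 replicate 1, 3 transporters rose and 4 fell (16.9% of all genes called). With a minimum of 5 FPKM 5 rose and 2 fell (31.6% called), where SLC1A4 passed only through the REEP6 libraries, in which it is high, and with a correction for GC content 5 rose and 2 fell (17.9% called).

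REEP6 itself was higher in both libraries labelled as overexpressing. It had 11.1 and 12.6 FPKM in the controls and 20.0 and 20.9 with overexpression (log2 fold change 0.82 ± 0.108 SE, edgeR adjusted p 0.00119). The libraries held 12856256 to 15208629 counts assigned to genes, and 24021 to 24393 genes had a count. Replicates of a group differed by more than counting noise (chi-square per degree of freedom 9.58 for the controls and 5.68 for REEP6). Markers that define squamous epithelium were mostly absent from these libraries: of 12 such markers 3 were tested, DSG3 and KRT6A had no count, CDH1 had counts of 0, 0, 1 and 0, KRT5 of 0, 0, 2 and 2, and TP63 of at most 14, while ITGA6 was at 47.6 FPKM and ITGB4 at 13.8 FPKM on average in the controls, and ITGB4 rose. The summed level of the 12 was 61.6 to 64.1 FPKM in the controls and 64.3 to 64.4 with REEP6. ITGA6 and ITGB4 made up most of it and moved in opposite directions. With REEP6 ITGA6 was at 43.7 FPKM, without being called, and ITGB4 at 18.3 FPKM. EPCAM, also tested, had 0.957 and 1.36 FPKM in the controls against 1.83 and 2.36 with REEP6 and was not called (edgeR adjusted p 0.055). The summed level of 10 fibroblast markers was 34.5 to 36.6 FPKM in the controls against 18.1 to 18.3 with REEP6, with COL3A1, LUM and PDGFRB lower and FAP at 0. POSTN was lower too (1.57 and 1.70 against 0.456 and 0.289 FPKM), but it was tested only through the controls, where it is high. COL3A1 made up most of the fibroblast sum (25.2 and 22.1 FPKM in the controls, 14.4 and 13.9 with REEP6). PDGFRA, which was not tested, went the other way (0.663 and 0.709 against 0.986 and 1.06 FPKM). COL1A2, DCN and THY1 had few or no counts. The summed level of 10 neuron and glia markers was 92.0 to 101 FPKM in the controls against 52.5 to 57.6 with REEP6, with S100B at 0. Of 4 tested, 3 were lower and made up most of this sum. These were STMN2 (mean 48.5 FPKM in the controls, 29.6 with REEP6), SNAP25 (38.4 and 20.5) and SYT1 (7.65 and 3.21). TUBB3 was tested only through the controls and was not called. RBFOX3, which was not tested, went the other way (counts of 1 and 5 in the controls, 13 and 7 with REEP6). Of 10 leukocyte markers 1 was tested and not called (sum 2.20 to 3.58 FPKM in the controls, 2.86 to 2.91 with REEP6, with CD68 and MS4A1 at 0). Of 8 endothelial markers 0 were tested (0.417 to 0.577 FPKM in the controls, 0.146 to 0.178 with REEP6, KDR and ROBO4 at 0), and of 6 melanocyte markers 0 (1.50 to 1.51 and 0.768 to 1.19 FPKM, TYR at 0). The part of these other markers in the transporter results was not tested. In RNA from whole cultures, fewer cells of a type and less RNA per cell cannot be told apart.

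Base composition also moved with the calls. The GC content of a gene's transcripts had a median of 55.1% over all genes called higher and 42.2% over all genes called lower, and 53.3% and 37.6% over the 5 and 4 transporters. The GC correction shifts values across all genes. Its result is given below for SLC7A11, SLC1A3, SLC38A2, SLC38A4, SLC36A4 and SLC43A2. SLC7A5, SLC1A5, SLC1A4 and SLC7A1 stayed called higher with it, and their corrected values are not printed.

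Promoter sequences are shown because 3 of the 5 genes that rose, SLC1A4, SLC1A5 and SLC7A1, hold the letters TGATGNAA, the core of the C/EBP-ATF response element through which ATF4 acts, on either strand. Each window runs from 250 bases before to 50 after a RefSeq transcript start (GRCh38.p14), is printed in the direction of the gene, and has matches in capitals, to TGATGNAA or to TGACNNNGC, the core of the antioxidant response element. The windows are chr2:64989149-64989448 (plus strand) for SLC1A4, chr19:46784765-46785064 (minus strand) for SLC1A5, chr13:29595639-29595938 (minus strand) for SLC7A1, chr11:62881449-62881748 (plus strand) for SLC3A2 and chr16:87869458-87869757 (minus strand) for SLC7A5. Those of SLC1A4, SLC1A5 and SLC3A2 belong to starts inside the gene, and the windows at the first start of these genes (chr2:64988229-64988528, chr19:46788545-46788844 and chr11:62855859-62856158) hold neither motif. SLC3A2 is shown as a gene that holds both motifs and was not called, and SLC7A5 as one that rose and holds only the second.
SLC1A4: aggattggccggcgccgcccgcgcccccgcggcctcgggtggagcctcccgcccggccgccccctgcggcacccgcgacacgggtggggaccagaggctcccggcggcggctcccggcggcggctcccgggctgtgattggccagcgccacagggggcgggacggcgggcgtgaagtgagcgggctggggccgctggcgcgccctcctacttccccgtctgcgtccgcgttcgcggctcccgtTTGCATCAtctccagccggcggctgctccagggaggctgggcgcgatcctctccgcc
SLC1A5: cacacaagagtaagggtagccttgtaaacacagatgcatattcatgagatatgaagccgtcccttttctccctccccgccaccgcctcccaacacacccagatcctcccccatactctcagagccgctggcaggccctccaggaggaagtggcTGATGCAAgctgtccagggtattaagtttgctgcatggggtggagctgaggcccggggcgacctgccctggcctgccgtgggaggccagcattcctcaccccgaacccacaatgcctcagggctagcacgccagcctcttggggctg
SLC7A1: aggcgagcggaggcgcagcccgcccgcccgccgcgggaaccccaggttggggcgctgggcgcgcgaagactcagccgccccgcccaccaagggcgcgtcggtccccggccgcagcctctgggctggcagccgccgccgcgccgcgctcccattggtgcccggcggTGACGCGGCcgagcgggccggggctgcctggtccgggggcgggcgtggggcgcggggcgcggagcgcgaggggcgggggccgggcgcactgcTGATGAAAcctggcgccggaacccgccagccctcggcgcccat
SLC3A2: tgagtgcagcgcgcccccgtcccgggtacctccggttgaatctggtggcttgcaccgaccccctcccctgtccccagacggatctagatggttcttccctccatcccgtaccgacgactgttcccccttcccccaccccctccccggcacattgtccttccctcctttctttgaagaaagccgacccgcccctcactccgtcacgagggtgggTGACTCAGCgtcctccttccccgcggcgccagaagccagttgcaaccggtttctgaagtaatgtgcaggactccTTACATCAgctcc
SLC7A5: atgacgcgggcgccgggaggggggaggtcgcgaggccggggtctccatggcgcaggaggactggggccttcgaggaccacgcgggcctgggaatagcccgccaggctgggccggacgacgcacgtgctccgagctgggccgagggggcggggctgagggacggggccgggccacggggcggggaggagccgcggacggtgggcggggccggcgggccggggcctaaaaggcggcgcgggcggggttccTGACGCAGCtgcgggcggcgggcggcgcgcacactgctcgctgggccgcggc

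TGATGNAA was found in 3.62% of all 35116 windows and in 6 of 66 windows (9.09%) of the 44 transporters that have one. TGACNNNGC was found in 13.3% of all windows and in 7 of the 66 (10.6%). The match begins at base -7 from the start in SLC1A4, -97 in SLC1A5, 8 in SLC7A1 and 38 in SLC3A2, and no match to one motif overlaps a match to the other. TGATGNAA was also present in windows of SLC1A3, which fell, and of SLC38A1, which was not called. Among transporters with a window, the motif was in 3 of 5 that rose, 1 of 3 that fell, 2 of 11 tested but not called and 0 of 25 not tested. For TGACNNNGC the split was nearly the same, with 3 of 5, 1 of 3, 2 of 11 and 1 of 25. SLC7A11, which fell, has no window. This split counts genes with a match in any of their windows, and some genes have several. It therefore cannot be set against the share of all windows. Bases outside the windows were not searched, so a gene without a match, such as SLC38A2 or SLC36A4, which fell, may hold the motif elsewhere. The split thus does not show that the motif goes with the genes that rose. These matches describe the letters only, and the windows hold no measure of binding.

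The light chains that bind SLC3A2 moved in opposite directions while the heavy chain stayed level. SLC7A5 (LAT1, chromosome 16, 87830023 to 87869488, minus strand) exchanges glutamine for leucine and other large neutral amino acids. Its level was 37.6 and 36.2 FPKM in the controls against 60.9 and 59.8 with REEP6, so both REEP6 libraries lay well above both controls (log2 fold change 0.74 ± 0.0818 SE, edgeR adjusted p 0.00063). Reads could be shared with its pseudogene SLC7A5P1, which had 26 to 49 counts per library against 2295 to 3826 for SLC7A5. SLC7A11 (xCT, chromosome 4, 138164097 to 138242349, minus strand) imports cystine in exchange for glutamate and so supplies cysteine for glutathione. It went from 5.25 and 4.63 FPKM to 2.31 and 2.11, again without overlap (log2 fold change -1.13 ± 0.119 SE, edgeR adjusted p 0.000518), which was the largest change among the tested transporters. After the GC correction its log2 fold change was -0.77 (adjusted p 0.00676).

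SLC3A2 (chromosome 11, 62856102 to 62888875, plus strand) stood at 46.2 and 39.9 FPKM in the controls against 43.7 and 40.01 with REEP6, and the groups overlapped (log2 fold change -0.01 ± 0.0984 SE, edgeR adjusted p 0.94). SLC7A6, a light chain that exchanges cationic for neutral amino acids, was likewise not called, with 7.39, 5.87, 6.73 and 6.21 FPKM in the order control 1, control 2, REEP6 1, REEP6 2. Per SLC3A2 transcript, on the FPKM scale, SLC7A5 went from 0.814 and 0.907 to 1.39 and 1.49, and SLC7A11 from 0.114 and 0.116 to 0.0529 and 0.0528. The ratio of SLC7A6 to SLC3A2 was 0.147 to 0.160 in all libraries. SLC7A5 was 7.17 and 7.81 times as abundant as SLC7A11 in the controls, and 26.4 and 28.3 times with REEP6. All these ratios are from FPKM without the GC correction. Transcript GC content was 60.4% for SLC7A5, 55.7% for SLC3A2 and 35.9% for SLC7A11, and its part in the ratios was not tested. With 2 libraries against 2, the smallest two-sided p of an exact permutation test is 0.333, and these ratios were not tested. The other light chain genes, SLC7A7, SLC7A8, SLC7A9, SLC7A10 and SLC7A13, and the second heavy chain gene SLC3A1, had at most 16 counts in a library.

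**Figure D1:**
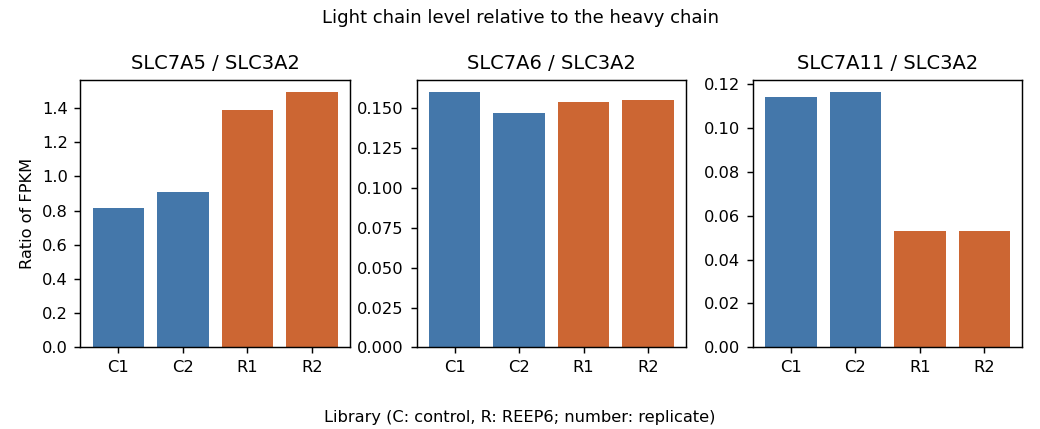
Ratio of the FPKM of SLC7A5, SLC7A6 and SLC7A11 to that of SLC3A2 (vertical axes, each from 0 and each with its own scale) in the control libraries (blue, C1 and C2) and the REEP6 libraries (orange, R1 and R2), 1 bar per library. SLC7A5 per SLC3A2 is 1.39 and 1.49 with REEP6 against 0.814 and 0.907, SLC7A11 per SLC3A2 is lower with REEP6, and SLC7A6 per SLC3A2 lies within 0.147 to 0.160. The ratios are not corrected for GC content.

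Among the SLC1 genes, both neutral amino acid exchangers rose. SLC1A5 (ASCT2, chromosome 19, 46774883 to 46788594, minus strand), which carries glutamine, had 38 and 34.4 FPKM in the controls against 56.8 and 45.5 with REEP6. The groups did not overlap, and REEP6 replicate 1 lay well above replicate 2 (log2 fold change 0.53 ± 0.116 SE, edgeR adjusted p 0.0106). Without REEP6 replicate 1, the higher of them, the log2 fold change was 0.35 and the adjusted p 0.0666. With limma on log2(FPKM + 1) the adjusted p was 0.0661. SLC1A4 (ASCT1, chromosome 2, 64988477 to 65023865, plus strand), which carries alanine, serine and cysteine, went from 2.63 and 3.23 FPKM to 5.03 and 5.17 (log2 fold change 0.82 ± 0.134 SE, edgeR adjusted p 0.0029). This was the largest rise among the tested transporters, and both REEP6 libraries were above both controls.

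The glutamate carriers of SLC1 were scarce. SLC1A3 (EAAT1, chromosome 5, 36606355 to 36688334, plus strand), a glutamate and aspartate importer, had 1.20 and 1.57 FPKM in the controls against 0.928 and 0.720 with REEP6 (log2 fold change -0.73 ± 0.236 SE, edgeR adjusted p 0.0486). It reached the limit for testing only through the controls. Its call ended in 8 of 15 alternatives: without control replicate 2 (adjusted p 0.229) or REEP6 replicate 2 (0.217), and with DESeq2 (0.107), limma (0.17 and 0.183), median-of-ratios factors (0.0526), edgeR's own count filter (0.0504) and the GC correction (0.0957). SLC1A1 (EAAT3), another glutamate importer, was under the limit with counts of 18 and 25 in the controls against 44 and 39 with REEP6. An annotated gene overlaps SLC1A3 on its own strand, AC008957.3, with 22 and 32 counts in the controls against 9 and 8 with REEP6, and was not tested. When no limit was set, SLC1A1 had a log2 fold change of 1.07 and an edgeR adjusted p of 0.0272. SLC1A2 had at most 7 counts in a library, SLC1A7 at most 25, and SLC1A6 none.

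Of the cationic amino acid carriers of SLC7, SLC7A1 rose. SLC7A1 (CAT1, chromosome 13, 29509410 to 29595688, minus strand), the widely expressed importer of arginine and lysine, went from 13.3 and 13.4 FPKM to 19.7 and 19.8, with replicates close together (log2 fold change 0.60 ± 0.0828 SE, edgeR adjusted p 0.00147). SLC7A2 (CAT2), an arginine carrier of the same branch, had 2.42 and 2.01 FPKM in the controls against 1.70 and 1.61 with REEP6, without overlap, but was not called (log2 fold change -0.39 ± 0.162 SE, edgeR adjusted p 0.104). It was called lower with equal FPKM sums and with a replicate block. Beyond these, SLC7A3 and SLC7A14 had no count, and SLC7A4 at most 6 counts in a library.

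The SLC38 family held the most abundant transcript and changed in both directions. SLC38A2 (SNAT2, chromosome 12, 46358189 to 46372867, minus strand), a sodium-coupled importer of small neutral amino acids known to be induced by amino acid shortage, went from 155 and 167 FPKM to 115 and 116 (log2 fold change -0.46 ± 0.0851 SE, edgeR adjusted p 0.0052). Both REEP6 libraries were below both controls. After the GC correction the log2 fold change was -0.17 and the adjusted p 0.155 (transcript GC content 38.8%, against a median of 49.0% over all genes tested). SLC38A1 (SNAT1, chromosome 12, 46183063 to 46270017, minus strand), a close relative that carries glutamine, stood at 60.9 and 58.9 FPKM in the controls against 60.3 and 57.1 with REEP6, with overlapping groups (log2 fold change -0.00 ± 0.083 SE, edgeR adjusted p 0.982). SLC38A2 was thus 2.54 and 2.84 times as abundant as SLC38A1 in the controls and 1.91 and 2.03 times with REEP6.

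SLC38A4 (SNAT4, chromosome 12, 46764761 to 46832408, minus strand), a neutral amino acid carrier best known from liver and placenta, rose from 15.6 and 16.5 FPKM to 20.7 and 20.6 (log2 fold change 0.39 ± 0.089 SE, edgeR adjusted p 0.0126). Its call ended without REEP6 replicate 1 (adjusted p 0.0568) and with equal FPKM sums (log2 fold change 0.26, adjusted p 0.0642), while the GC correction raised the log2 fold change to 0.635. A non-coding gene on the opposite strand of its locus, AC008014.1, had 153 and 144 counts in the controls against 82 and 85 with REEP6 (log2 fold change -0.73, edgeR adjusted p 0.026), and whether reads were assigned by strand is not given in the sources used here. SLC38A1, SLC38A2 and SLC38A4 lie beside one another on chromosome 12, and of the 3 one was not called, one fell and one rose. SLC38A10 was not called at 13.4 and 12.8 FPKM in the controls against 13.9 and 12.8 with REEP6. SLC38A6, SLC38A7, a lysosomal glutamine exporter, and SLC38A9, the lysosomal arginine sensor of mTORC1, had 1.99 to 4.34 FPKM in every library, with overlapping groups and log2 fold changes of 0.11 to 0.17. SLC38A3, a glutamine carrier of liver and brain, stayed under the limit (16 to 35 counts). SLC38A5 had at most 1 count, and SLC38A8 and SLC38A11 had none.

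Proton-coupled SLC36A4 (PAT4, chromosome 11, 93144171 to 93197964, minus strand), a carrier of proline and tryptophan, fell from 9.13 and 9.67 FPKM to 6.44 and 6.55, with both REEP6 libraries below both controls (log2 fold change -0.51 ± 0.0894 SE, edgeR adjusted p 0.00397). With a transcript GC content of 36.4%, its log2 fold change after the GC correction was -0.16 (adjusted p 0.238). SLC36A1 (PAT1), which exports small amino acids from lysosomes, had 3.70 and 3.74 FPKM in the controls against 4.28 and 4.70 with REEP6 and was not called (log2 fold change 0.30 ± 0.118 SE, edgeR adjusted p 0.0935). SLC36A2 and SLC36A3 had no count. In the sodium-independent SLC43 family, SLC43A2 (LAT4), a carrier of large neutral amino acids, had 13.6 and 12.6 FPKM in the controls against 11.6 and 11.2 with REEP6 without being called (log2 fold change -0.17 ± 0.0868 SE, edgeR adjusted p 0.176). It was called lower with equal FPKM sums (adjusted p 0.0414), with the GC correction (0.0398) and with a replicate block. SLC43A1 (LAT3) was not called (log2 fold change 0.34 ± 0.183 SE), and SLC43A3 was just outside the limit, at 1.14 FPKM in control replicate 1 and 0.716 to 0.786 FPKM elsewhere.

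The SLC6 family, which holds the carriers of monoamines, GABA, glycine, creatine and taurine beside some of amino acids, was carried by 1 gene: 2 of 19 genes were tested, 10 had no count, and SLC6A6 made up most of the family's summed level (41.6 ± 2.27 FPKM in the controls and 46.4 ± 0.693 with REEP6, SD, n = 2). SLC6A6 (chromosome 3, 14402576 to 14489349, plus strand), the taurine carrier, had 38.5 and 36.03 FPKM in the controls against 42.7 and 41.4 with REEP6. The groups did not overlap, but the gene was not called (log2 fold change 0.20 ± 0.0834 SE, edgeR adjusted p 0.105). SLC6A8, the creatine carrier, had 3.24 to 3.78 FPKM with overlapping groups. SLC6A9, a glycine carrier, had 29 to 50 counts and stayed under the limit, and none of the other SLC6 genes had more than 8 counts in a library.

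**Figure D2:**
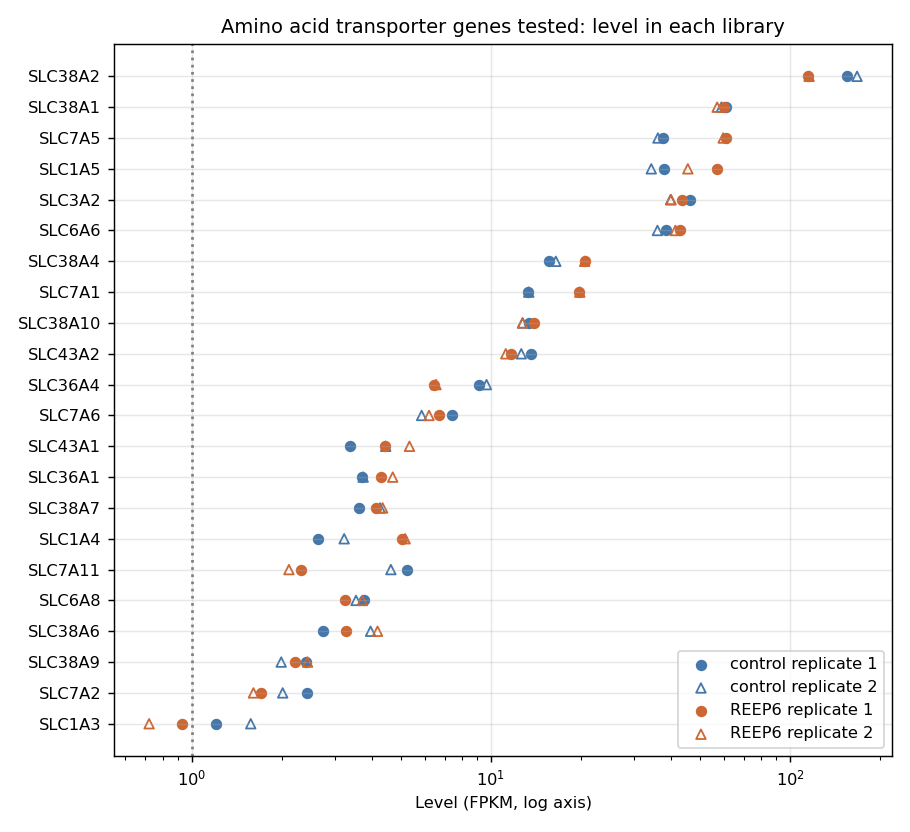
Level of the 22 tested transporter genes in FPKM (horizontal log axis) in the 2 control libraries (blue) and the 2 REEP6 libraries (orange), ordered by the mean over libraries, with a dotted line at 1 FPKM. SLC38A2 leads in every library, and the groups separate for SLC7A5, SLC7A1 and SLC7A11 but overlap for SLC38A1 and SLC3A2.

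Seen as a whole, the summed level of the 59 genes hardly differed between groups. It was 483 and 480 FPKM in the controls against 493 and 474 with REEP6, or 0.176% to 0.184% of all FPKM in the controls and 0.165% to 0.171% with REEP6. SLC38A2 alone made up 32.0% and 34.9% of that sum in the controls and 23.3% and 24.4% with REEP6. The summed level of SLC7 genes went from 64.4 ± 2.67 to 90.9 ± 1.20 FPKM (SD, n = 2), and that of SLC1 genes from 41.2 ± 1.86 to 58.0 ± 8.01, while SLC38 genes summed to 260 ± 8.66 in the controls and 219 ± 1.67 with REEP6. SLC38A2, SLC38A1, SLC7A5, SLC1A5, SLC3A2 and SLC6A6 made up 75.8% to 77.8% of the sum. In the controls the order was SLC38A2, SLC38A1, SLC3A2, SLC6A6, SLC7A5 and SLC1A5, and with REEP6 it was SLC38A2, SLC7A5, SLC38A1, SLC1A5, SLC6A6 and SLC3A2. In the controls SLC7A5, SLC1A5 and SLC6A6 did not differ beyond their spread (36.9 ± 1.03, 36.2 ± 2.58 and 37.3 ± 1.78 FPKM). With REEP6, SLC7A5 (60.3 ± 0.809 FPKM) was at the level of SLC38A1 (58.7 ± 2.26 FPKM). The FPKM of the groups did not overlap for 13 of the 22 tested transporters (59.1%), against 63.5% of all genes tested, and for all 9 that were called. The 9 were picked by a test on the same libraries, so their separation adds no support.

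**Figure D3:**
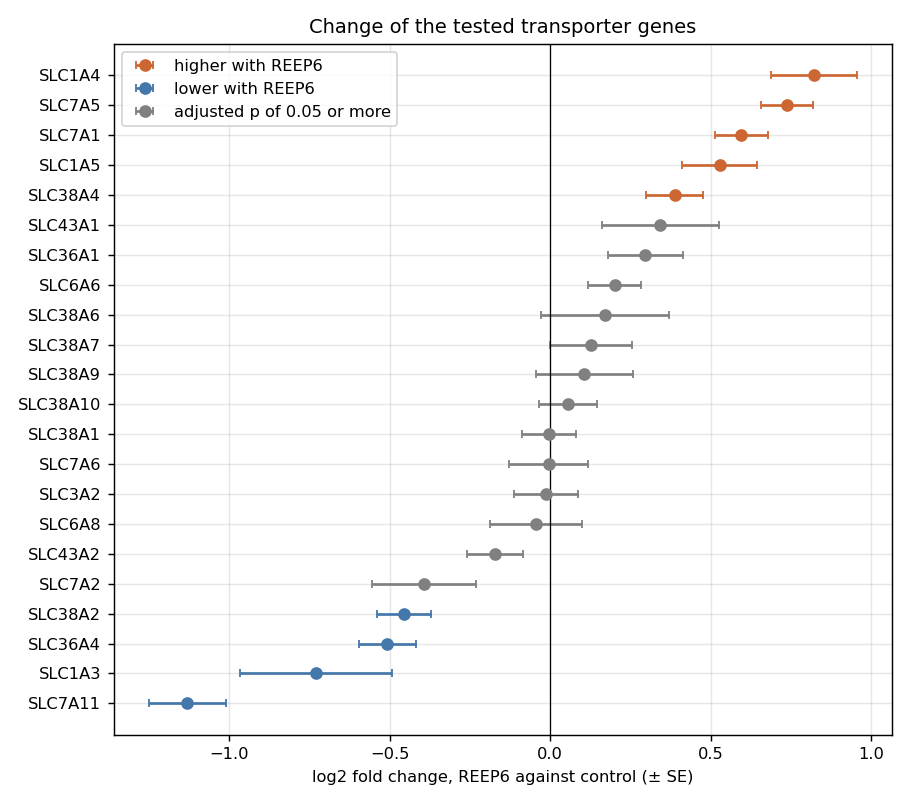
Log2 fold change of the 22 tested transporter genes, REEP6 against control, with its standard error (horizontal bars), from edgeR's quasi-likelihood test. The 5 genes in orange rose, the 4 in blue fell, and the 13 in grey were not called.

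Genes of the amino acid response, the pathway in which the kinase GCN2 (EIF2AK4) raises translation of ATF4, were higher where they were called: of 26 listed genes 20 were tested, 8 rose and 0 fell, a called share of 40% against 25.1% among all genes. Their median log2 fold change was 0.16, against -0.01 over all genes tested. PSPH, PHGDH and PSAT1 code for the enzymes of serine synthesis. PSPH rose from 4.11 and 3.83 to 6.70 and 7.32 FPKM (log2 fold change 0.85 ± 0.154 SE, edgeR adjusted p 0.00459). PHGDH rose from 10.0 and 10.4 to 16.7 and 16.6 FPKM (log2 fold change 0.73 ± 0.0845 SE), and PYCR1, a proline synthesis enzyme, from 3.72 and 2.89 to 6.02 and 5.26 FPKM (log2 fold change 0.80 ± 0.183 SE). The other 5 that rose, chosen for mention after their values were seen, were PSAT1 (log2 fold change 0.64), TRIB3 (0.72), a pseudokinase that restrains ATF4, the folate enzymes SHMT2 (0.41) and MTHFD2 (0.44), and ATF4 itself (0.31, edgeR adjusted p 0.0318). The ATF4 call ended with equal FPKM sums, with limma, without either REEP6 replicate and with the GC correction. With equal FPKM sums 5 rose, and with limma on log2(FPKM + 1) 6 rose and 1 fell (14.6% of all genes called). ASNS, the asparagine synthetase and a classical target of ATF4, had only 5 and 9 counts in the controls against 10 and 12 with REEP6, and DDIT3 was not called (log2 fold change -0.59, edgeR adjusted p 0.13). These 2 were also chosen after their values were seen.

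Genes through which amino acids act on mTORC1 at the lysosome had 30 of 32 listed members tested. Of these 6 fell (20.0%, against 14.2% of all genes) and 0 rose (against 10.9%). In either direction the called share was 20.0%, under the 25.1% of all genes. SESN3, a relative of the leucine sensor SESN2, fell from 5.73 and 6.30 to 2.42 and 2.49 FPKM (log2 fold change -1.27 ± 0.103 SE, edgeR adjusted p 0.000141). FLCN, the folliculin subunit that acts on RagC and RagD, fell from 6.995 and 6.947 to 2.84 and 3.45 FPKM (log2 fold change -1.12 ± 0.111 SE). Its partner FNIP1 fell from 10.3 and 11.6 to 5.29 and 6.98 FPKM (log2 fold change -0.81 ± 0.13 SE). The other 3 that fell, named after their values were seen, were the second partner FNIP2 (log2 fold change -0.45) and both large subunits of the TSC complex, TSC1 (-0.64) and TSC2 (-0.32). Rag GTPases, LAMTOR subunits, MTOR and RPTOR were not called, although some genes of the list rose when a control library was left out.

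**Figure D4:**
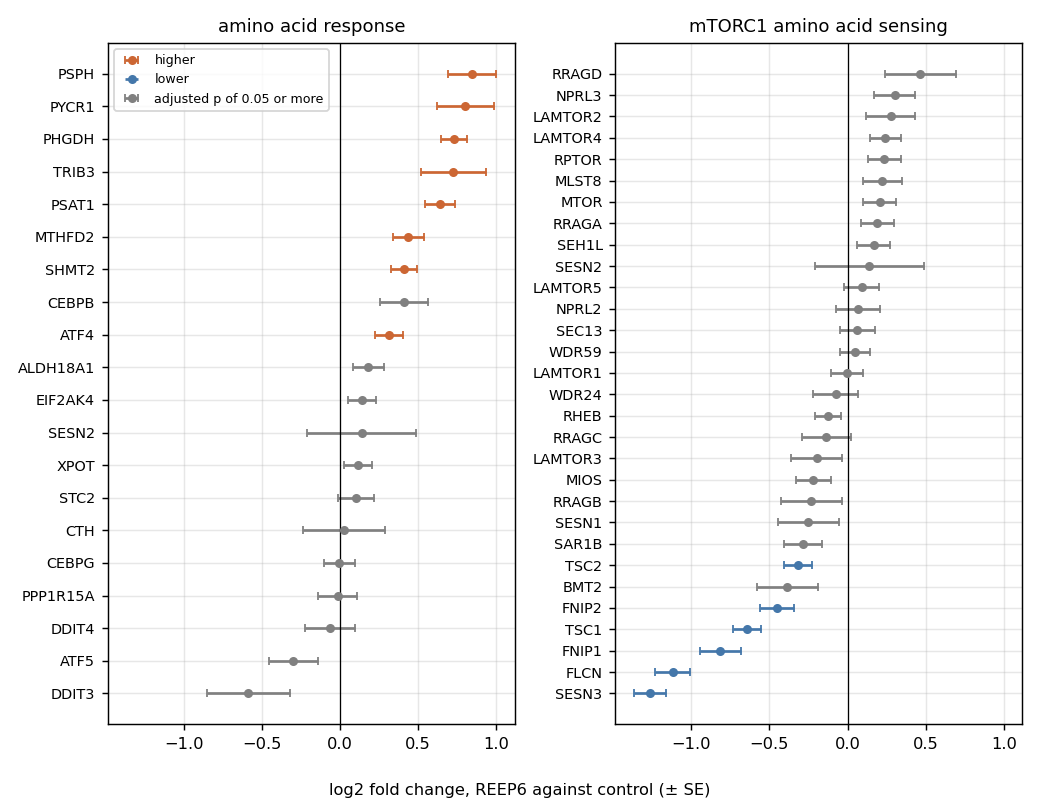
Log2 fold change with standard error (horizontal axis), REEP6 against control, of the 20 tested genes of the amino acid response (left) and the 30 tested genes of mTORC1 amino acid sensing (right). On the left 8 genes were called, all higher (orange), and on the right 6 were called, all lower (blue), with the rest in grey.

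Of the enzymes that use imported glutamine, glutamate and cysteine, 14 were tested, 2 rose and 2 fell, a called share of 28.6% that is near the 25.1% of all genes. GPT2, a mitochondrial alanine aminotransferase, rose (log2 fold change 0.68 ± 0.163 SE, edgeR adjusted p 0.0151). The subunits of the first enzyme of glutathione synthesis were called in opposite directions, GCLM higher (log2 fold change 0.48 ± 0.148 SE) and GCLC lower (-0.37 ± 0.0971 SE), but neither call held without REEP6 replicate 2 (adjusted p 0.249 and 0.172). The GPT2 call ended without REEP6 replicate 1 (adjusted p 0.0843) and with limma (0.0659), and the other calls ended in 7 of 16 alternatives for GCLM and 6 of 16 for GCLC. For GCLM these included control replicate 1 left out (0.111), limma (0.146 and 0.149), equal FPKM sums (0.106), library totals (0.0559) and a minimum of 5 FPKM (0.0609). For GCLC they included control replicate 2 left out (0.0604), DESeq2 (0.0576), limma (0.0569 and 0.0577) and the GC correction (0.108). GLUL, glutamine synthetase, fell (log2 fold change -0.35, named after its value was seen). Fewer genes of this list rose or fell in some fits with a library left out.

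Among other amino acid carriers and partners of the transporters, 4 of 11 tested genes rose and 1 fell (45.5% called, against 25.1% of all genes, 10.9% higher and 14.2% lower). ARL6IP5, an endoplasmic reticulum protein that restrains the glutamate carrier SLC1A1, fell from 112 and 113 to 72.6 and 69.9 FPKM (log2 fold change -0.63 ± 0.0819 SE, edgeR adjusted p 0.00108). LAPTM4B, which brings SLC7A5 and SLC3A2 to lysosomes, rose from 86.3 and 99.0 to 118 and 123 FPKM (log2 fold change 0.41 ± 0.0927 SE). SLC25A15, the mitochondrial ornithine carrier, rose as well (log2 fold change 0.48 ± 0.144 SE, edgeR adjusted p 0.0379), and its call ended in 7 of 16 alternatives, among them without control replicate 1 (0.109), REEP6 replicate 1 (0.176) or REEP6 replicate 2 (0.0539). Fewer genes of the list rose without control replicate 1, REEP6 replicate 1 or REEP6 replicate 2, and more fell without control replicate 1. With equal FPKM sums 0 rose and 2 fell, the LAPTM4B and SLC25A15 calls ending (adjusted p 0.0528 and 0.103), and with limma on log2(FPKM + 1) the LAPTM4B call also ended (0.0583).

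Of 12 transcription factors and regulators known to act on transporter genes, 8 were tested, 4 fell and 2 rose, against 14.2% lower and 10.9% higher among all genes. BACH1, a repressor at antioxidant response elements, fell from 7.11 and 7.01 to 4.01 and 4.07 FPKM (log2 fold change -0.78 ± 0.0965 SE, edgeR adjusted p 0.000965). HIF1A, the hypoxia factor, fell from 44.5 and 45.8 to 27.9 and 28.9 FPKM (log2 fold change -0.64 ± 0.082 SE; -0.36 with the GC correction), and its relative EPAS1 from 4.79 and 4.70 to 3.19 and 2.84 FPKM (log2 fold change -0.63 ± 0.123 SE). NFE2L2 (NRF2), an activator of SLC7A11, was the fourth to fall (log2 fold change -0.42, edgeR adjusted p 0.0129), and its inhibitor KEAP1 rose (0.32, edgeR adjusted p 0.0365), as did ATF4. These 3 were named after their values were seen. With equal FPKM sums, with limma at either pseudocount or with the GC correction 0 of the list rose. Fewer than in the main test rose when either REEP6 replicate or control replicate 2 was left out. MYC, an activator of SLC7A5 and SLC1A5, stayed under the limit with 24 to 48 counts per library.

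**Figure D5:**
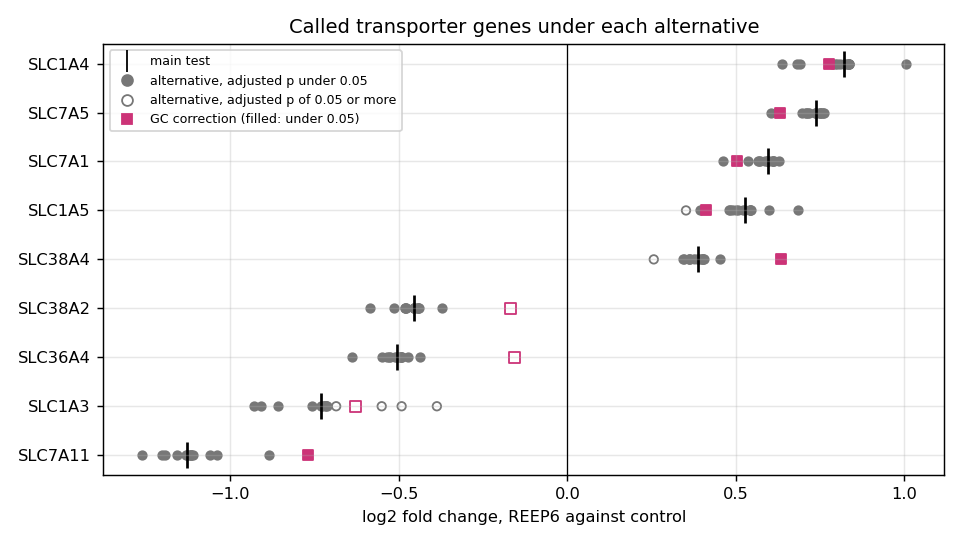
Log2 fold change (horizontal axis) of the 9 called transporter genes in the main test (black bar) and under each alternative analysis (grey circles; pink squares for the GC correction), filled where the adjusted p was under 0.05. SLC1A4, SLC7A5, SLC7A1 and SLC7A11 stay under 0.05 in every alternative in which they were tested, and SLC38A2 and SLC36A4 move closest to 0 with the GC correction.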

How the data were processed

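Polyadenylated RNA of 4 libraries was measured, 2 labelled NC and 2 labelled REEP6-overexpression. The authors deposited raw counts and FPKM per gene for each library, per the file headers. HISAT2 and HTSeq 0.13.5 with build GRCh38 stand in the submitters' processing notes, without roles. Annotation and strand setting: not given in the sources used here. For 19885 genes with a count in all libraries, count and FPKM gave 1 length per gene (100%, relative tolerance 0.0001). Positions and GC content are from GENCODE 29 (GRCh38), where all 59 transporter genes matched, and promoter windows are from RefSeq.

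Counts were scaled by TMM and fitted with edgeR 4.0.16 (R 4.3.3), quasi-likelihood, group as the only term, 2 residual degrees of freedom, over the 13077 genes that reached 1 FPKM in 2 or more libraries. The standard error is the log2 fold change over the square root of F. Tests were two-sided with Benjamini-Hochberg adjustment over all genes. The method was tested on simulated data. Alternatives were 15 planned settings, among them limma 3.58.1 and DESeq2 1.42.0, and 1 added after seeing the data, a loess correction (span 0.3) for GC content. Genes were described singly if they were transporters that were called or had a mean of at least 10 FPKM, or among the 3 largest called changes of a pathway list. The transporters and lists were chosen with earlier results of these data known. Depth limits low genes: no transporter outside the tested set had over 66 counts in a library.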

Additional observations from a re-analysis of the deposited data

How the results depend on the processing

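Over 16 alternatives (15 for SLC7A11 and SLC1A3, which a minimum of 5 FPKM left out) no called transporter changed direction, and SLC7A5, SLC1A4, SLC7A1 and SLC7A11 kept their calls in each. SLC1A4 met the minimum of 5 FPKM only in the REEP6 libraries, where it is high, so its call there is no support. The number of transporters that rose, 5, was 3 to 5 when 1 library was left out, lowest without REEP6 replicate 1, and 3 to 4 of 4 fell. A minimum of 5 FPKM, which tests 13 transporters, left 2 lower, and the GC correction 2 lower, of which SLC43A2 was called in that fit and not in the main test. Over all genes, 1422 higher and 1854 lower became 661 and 2824 with equal FPKM sums, 634 higher with limma on log2(FPKM + 1), 597 and 1233 on log2(FPKM + 0.1), 936 higher with a minimum of 5 FPKM and 1140 lower with the GC correction. Leaving out 1 library gave 940 to 1495 higher and 1272 to 1717 lower. Over the pathway lists 15 genes rose and 13 fell. The number that rose was 6 with equal FPKM sums, 7 with limma at either pseudocount, 9 with a minimum of 5 FPKM and 9 to 17 without 1 library. The cause of these shifts was not tested, and some settings use fewer genes or libraries. Setting the FPKM sums equal lowers REEP6 values relative to the controls by construction. The FPKM totals were 262497 and 273154 in the controls against 288404 and 287580 with REEP6. Same-numbered libraries deviated together (correlation 0.271 across genes, 2 pairs), but the labels do not say that a number marks a shared culture or day. With a replicate block 8 transporters rose and 6 fell (46.0% of all genes called). Those called in that fit and not in the main test were SLC6A6, SLC36A1 and SLC43A1 (higher) and SLC7A2 and SLC43A2 (lower). Over all genes 2957 rose and 3062 fell, and over the pathway lists 29 rose and 19 fell.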
